A study of Mus musculus with 16 samples.

Results

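Far intergenic regions are stretches of open chromatin whose peaks lay outside every protein-coding gene and 100 kb or more from the nearest protein-coding gene end. They were chosen by the midpoint of each peak on chromosomes 1 to 19, X and Y, measured against 21887 protein-coding genes of mouse mm10. Over 16 peak lists 95306 of 575501 peaks met this rule, and merging peaks that overlapped by at least 1 bp gave 33671 far regions of 163173 regions in all. The rule used position only, and not the width, rank or group of the peaks. A far region needs a peak in at least 1 list, so long lists weigh more in the set.

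The study profiled open chromatin by ATAC-seq, in which a transposase cuts and tags accessible DNA, in mouse embryonic stem cells (ESCs) and embryoid bodies. All cells descend from an Rx:GFP knock-in ESC line, in which a fluorescent reporter sits at the eye field gene Rx (Rax), and each of 8 groups holds 2 replicates. The ESC groups, kept in 2i+LIF, were the parental cells, a pair of clones with p53 knocked out (C9 and H9), and double knockouts (DKO) of Wdr5 and p53. The double knockouts stably carried 1 of 3 plasmids, the backbone alone, WDR5WT (the wild-type protein) or the S91K-Y191F mutant of WDR5. The embryoid bodies were made by SFEBq, an aggregation culture in GMEM medium with 5% KSR that received 2% matrigel on day 1, from the parental line (day 4 by label) and from double knockout cells (no day in their labels). WDR5 holds together the MLL-type complexes that methylate histone H3, and p53 is a transcription factor that responds to DNA damage and other stress. Every ESC group other than the parental one lacks p53. C9 and H9 are each 1 clone, whereas the labels do not say how many clones stand behind the double knockouts. The labels do not say that replicates were separate cultures, so p-values measure only the spread between these lists, which may be technical.

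Distal enhancers are stretches of regulatory DNA that transcription factors bind and that act on promoters by looping over long distances. Gene deserts, long spans without protein-coding genes, often flank developmental regulators and neuronal adhesion genes, and some are known to hold enhancers, long non-coding RNAs (lncRNAs) and microRNAs. Genes of the cadherin, protocadherin and teneurin families are typical neighbours of such deserts.

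The lists differed widely in length, from 1535 to 32709 peaks in ESCs and from 75673 to 93646 in embryoid bodies. The 6 lists of C9, H9 and WDR5WT ESCs held 26305 to 32709 peaks each, whereas the parental replicates held 24367 and 5330, S91K-Y191F 5174 and 16257, and backbone 1535 and 2492. No read counts come with the lists, so the depth behind a peak is unknown and counting error cannot be stated. Blacklisted regions were removed from the embryoid body lists and no such removal is stated for the ESC lists, so stage and processing cannot be told apart. Peaks within 1 kb of a gene end were seen at 26 to 28 of 30 pluripotency genes in the embryoid body lists and at 1 to 24 in the ESC lists. At 86 neural and eye field regulators the counts were 72 to 82 in embryoid bodies and 0 to 66 in ESCs. Nanog had such a peak in 9 of 12 ESC lists and Rax in 8, whereas Esrrb and Six3 had one in 0 of 12. Wdr5 and Trp53 had one in all 4 embryoid body lists, DKO included, and such a peak does not check the deletions because the labels do not give the deleted part.

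Of the 33671 far regions, 23222 (69.0%) were found in embryoid body lists only, 4321 (12.8%) in ESC lists only and 6128 (18.2%) in both stages. The same shares over all regions of the series were 68.0%, 9.07% and 23.0%. A single list accounted for 16419 far regions (48.8%), against 41.7% of all regions. All 4 embryoid body lists shared 4951 far regions (14.7%, against 25.9% of all regions), and the 6 lists of C9, H9 and WDR5WT ESCs shared 2572 (7.64%, against 10.7%). These 10 lists had 1240 far regions in common. Far regions were thus recorded by fewer lists than regions in general. The median distance to the nearest protein-coding gene was 276 kb (quartiles 165 and 518 kb), 2884 far regions (8.57%) lay 1 Mb or more away, and the farthest lay 2.27 Mb away. Just inside the 100 kb limit, from 100 to 110 kb, the 16 lists held 4559 peaks, and just outside it, from 90 to 100 kb, they held 5429. Median widths inside and outside the limit were 303 to 326 bp and 304 to 334 bp in the embryoid body lists, and 520 to 898.5 bp and 552.5 to 698 bp in the ESC lists, the widest in replicate 1 of backbone ESCs.

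Annotated non-coding genes or pseudogenes overlapped 5270 far regions (15.7%). Of all 33671, 4288 (12.7%) overlapped a lncRNA gene, while lncRNA genes covered 9.29% of the sequence that counts as far. The share was 16.9% among the 4951 far regions in all 4 embryoid body lists. The starts of far lncRNAs were looked at apart. The RefSeq table (GRCm38.p6, the mm10 assembly) gave 2077 windows of 250 bases before to 50 after such a start, from 1757 lncRNA genes, and 343 of them overlapped a far region in any list.

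The start windows that were open in most lists are printed because they show how much the sequence of such windows varies, with and without GC boxes. Gm26901, Gm42000 and Dubr are lncRNAs whose windows were open in 15, 15 and 14 of 16 lists. Gm31946, from the desert beside Nr2f1, and Tunar, a lncRNA known for a role in ESCs and neural differentiation, were added after their values were seen. Each is given 5′ to 3′ along the RNA's strand, with the GC box (GGGCGG, or CCGCCC on the other strand) in capitals.
Gm26901: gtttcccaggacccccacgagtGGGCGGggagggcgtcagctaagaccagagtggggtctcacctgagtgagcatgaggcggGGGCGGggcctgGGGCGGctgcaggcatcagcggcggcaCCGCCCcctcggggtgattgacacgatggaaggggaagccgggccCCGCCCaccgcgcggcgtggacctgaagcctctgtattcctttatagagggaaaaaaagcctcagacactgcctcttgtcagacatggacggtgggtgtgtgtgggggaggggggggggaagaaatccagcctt
Gm42000: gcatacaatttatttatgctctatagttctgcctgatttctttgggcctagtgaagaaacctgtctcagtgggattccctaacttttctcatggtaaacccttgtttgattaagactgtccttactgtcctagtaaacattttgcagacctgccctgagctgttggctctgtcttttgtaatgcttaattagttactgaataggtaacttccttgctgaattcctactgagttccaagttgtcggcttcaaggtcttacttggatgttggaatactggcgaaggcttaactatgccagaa
Dubr: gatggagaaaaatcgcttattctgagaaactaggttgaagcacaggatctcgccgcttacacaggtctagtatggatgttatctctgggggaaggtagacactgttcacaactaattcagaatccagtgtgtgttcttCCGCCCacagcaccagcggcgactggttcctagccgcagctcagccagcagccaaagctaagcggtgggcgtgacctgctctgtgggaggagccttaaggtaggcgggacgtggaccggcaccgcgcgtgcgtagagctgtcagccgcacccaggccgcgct
Gm31946: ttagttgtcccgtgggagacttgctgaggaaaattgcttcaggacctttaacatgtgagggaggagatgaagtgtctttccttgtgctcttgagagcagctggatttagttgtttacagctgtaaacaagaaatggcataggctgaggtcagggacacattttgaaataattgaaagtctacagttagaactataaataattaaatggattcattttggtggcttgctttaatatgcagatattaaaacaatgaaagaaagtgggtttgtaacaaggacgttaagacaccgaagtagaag
Tunar: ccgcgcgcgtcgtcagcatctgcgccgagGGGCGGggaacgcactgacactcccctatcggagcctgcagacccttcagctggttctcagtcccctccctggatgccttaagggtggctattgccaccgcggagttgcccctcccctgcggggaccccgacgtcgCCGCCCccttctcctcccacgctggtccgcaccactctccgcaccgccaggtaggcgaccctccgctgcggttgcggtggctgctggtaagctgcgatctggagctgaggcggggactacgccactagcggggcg

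Gm26901 (chr1:7398047-7398346, minus strand) lies between Pcmtd1 and Sntg1, 224 kb from the nearest gene, and its window held 5 GC boxes. Gm42000 (chr3:15055845-15056144, plus strand) held 0 GC boxes, Dubr (chr16:50732724-50733023, minus strand) 1, and Tunar (chr12:105336743-105337042, plus strand) 2. Gm31946 (chr13:78426685-78426984, plus strand) also held 0, and its open region, chr13:78426966-78428581, began within the last bases of the window. The fold enrichment over local background that the authors' lists give for that region was 9.0 and 8.81 in the parental and 7.13 and 6.75 in the DKO embryoid bodies, and 12 of 16 lists recorded it. The Gm26901 region had 7.03 and 6.54 in the parental and 6.31 and 6.28 in the DKO embryoid bodies.

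GC boxes followed openness over the far lncRNA starts as a whole. A GC box on either strand was present in 31.7% of 63 windows open in all 4 embryoid body and all 6 C9, H9 and WDR5WT lists, in 24% of 154 windows open in all 4 embryoid body lists, and in 3.75% of 1734 windows without a region. It was present in 46.2% of protein-coding start windows and in 35.7% of all start windows in the table. The median number of CpG pairs per window fell in the same order, with 7, 6 and 2 against 13 at protein-coding starts. The CCAAT box, searched as CCAAT on both strands, did not follow this order and was present in 39.7%, 37.0% and 40.0% of the same 3 sets, against 37.4% of all start windows. None of the 5 printed windows held it, and a match of these letters is a description of sequence, not of binding.

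MicroRNA hairpins gave a smaller set. Of 104 far hairpins in RefSeq 11 overlapped a far region in any list, 3 did so in all 4 embryoid body lists, and Mir137 was the 1 that also did so in all 6 C9, H9 and WDR5WT lists. The mature arms are printed with the seed, bases 2 to 8, in capitals, since the seed selects the targets of a microRNA.
miR-137-3p: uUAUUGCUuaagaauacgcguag
miR-344-3p: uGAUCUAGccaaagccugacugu
miR-344-5p: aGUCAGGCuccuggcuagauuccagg
miR-99a-5p: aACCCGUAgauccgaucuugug

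Mir137, a microRNA known for a role in neural stem cells and neurons, lies between Snx7 and Dpyd, with miR-137-3p at chr3:118433901-118433923. Its region had a fold enrichment of 2.70 and 2.87 in the parental and 3.30 and 3.02 in the DKO embryoid bodies. Mir344 and Mir344-2 share the same mature sequences and lie 470 and 408 kb from the nearest gene in the gap between Gm51483 and Ndn on chromosome 7. The Mir344 region had 7.75 and 5.71 in the parental and 7.55 and 8.24 in the DKO embryoid bodies. Fold enrichments describe a peak within its list and are not compared between lists here. The 5p arms of Mir344, Mir344-2, Mir344b and Mir344g carry 1 seed, GUCAGGC. Mir99a, known as a member of a family shared with Mir100, had a peak in both DKO embryoid body lists (3.33 and 3.47) and in 0 of the other 14 lists.

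The share of peaks that were far was measured next, by group and by stage. In parental ESCs the far share was 15.8% and 12.7% of the list, in C9 17.3% and 20.8%, and in H9 16.2% and 16.5%. In the double knockouts it was 14.3% and 11.9% with backbone, 16.4% and 15.3% with WDR5WT, and 10.7% and 13.6% with S91K-Y191F. Parental embryoid bodies had 14.6% and 13.8%, and DKO embryoid bodies 17.1% and 20.6%. The replicate 2 lists of C9 and of DKO embryoid bodies were the highest, and both are the lists of their pair with more peaks. The groups of p53 knockout and parental ESCs did not overlap, nor did DKO and parental embryoid bodies. The same held for WDR5WT and backbone ESCs. It also held for C9 and H9, which are clones of the same genotype.

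**Figure D1:**
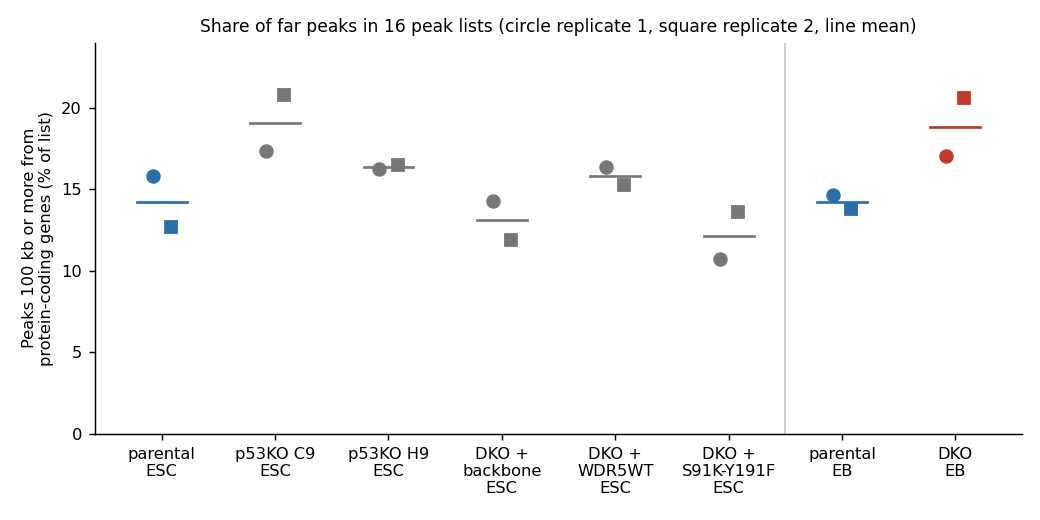
Share of peaks that lie 100 kb or more from every protein-coding gene (y axis, % of the list) in the 8 groups (x axis), with replicate 1 as a circle, replicate 2 as a square and the mean as a line. The 16 lists range from 10.7% to 20.8%, and the DKO embryoid bodies (18.9% on average) stand above the parental embryoid bodies (14.2%).

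Far shares differed between DKO and parental embryoid bodies by 4.63 percentage points (18.9 ± 2.51 against 14.2 ± 0.607, SD, n = 2 each; two-sided exact permutation test p = 0.333, the smallest that 2 against 2 lists can give). The difference fell to 1.73 when distance was measured to all annotated genes rather than to protein-coding genes. P53 knockout ESCs had 17.7 ± 2.11% (n = 4) against 14.3 ± 2.19% (n = 2) in parental ESCs, 3.46 points higher, with an exact permutation p of 0.133 where 0.0667 is the smallest possible. With all lists cut to the same length this difference turned to -3.04. WDR5WT ESCs exceeded backbone ESCs by 2.72 points (exact permutation p = 0.333), and at equal list length the difference was -9.58. The differences of backbone from parental ESCs (-1.16) and of S91K-Y191F from backbone ESCs (-0.936) were within the replicate spread (exact permutation p = 0.667 each).

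WDR5WT ESCs lay under the p53 knockout ESCs (a difference of -1.90 points, exact permutation p = 0.4), and C9 lay 2.71 points above H9 (exact permutation p = 0.333). Embryoid bodies (16.5 ± 3.06%, n = 4) and ESCs (15.1 ± 2.71%, n = 12) differed by 1.41 points (exact permutation p = 0.397). This comparison changed with the setting. With each list cut to its 1535 strongest peaks, the length of the shortest, it was 12.5 points (exact permutation test, adjusted p = 0.00879). In the upper 50% of each list by the deposited p it was -1.53. The cut ranked embryoid body peaks by fold enrichment and ESC peaks by an unlike signal. The part of list length alone was not tested. Over these 8 comparisons the Benjamini-Hochberg adjusted p-values of the exact permutation tests were 0.533 or 0.667. None of the 8 passed, and 7 of them could not have passed with their numbers of lists. The DKO-minus-parental difference was 4.63 points in embryoid bodies and -1.16 in ESCs with backbone plasmid, and the difference between the 2 gave an exact permutation p of 0.111 (the smallest possible is 0.0556).

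Within the embryoid bodies the contrast between DKO and parental lists widened with distance from genes. Peaks inside protein-coding genes made up 51.0% and 51.8% of the parental and 48.4% and 46.1% of the DKO lists. From 200 to 500 kb the shares were 5.85% and 5.54% against 6.63% and 8.03%, and from 500 kb to 1 Mb 2.1% and 1.98% against 2.93% and 3.93%. At 1 Mb or more, the emptiest territory, parental lists held 0.847% and 0.785% of their peaks and DKO lists 1.42% and 2.01%. Both DKO lists were above both parental lists in each band beyond 50 kb. The ratio of the means rose from 0.920 inside genes to 1.13, 1.29, 1.68 and 2.1 in the 4 bands beyond 100 kb. Without chromosome 8 the last was 1.95. In each of these bands the exact permutation p was 0.333, the smallest possible. After adjustment over 9 bands the exact permutation p was 0.429, or 0.5 without chromosome 8. Replicate 2 of the DKO embryoid bodies was the higher in every one of the 4 bands beyond 100 kb.

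**Figure D2:**
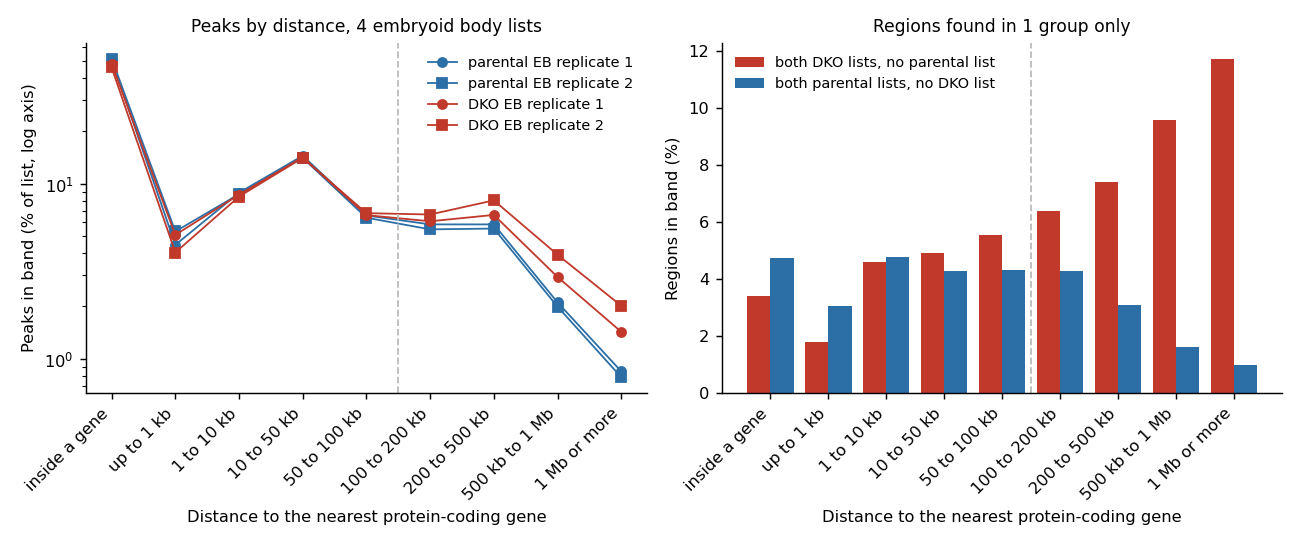
Left, share of each embryoid body list's peaks (y axis, %, log scale) by distance to the nearest protein-coding gene (x axis), with 1 line per list. Right, regions found in both lists of one group and in no list of the other, as a percentage of the regions in each band; the dashed line marks 100 kb. DKO-only regions rise from 3.40% inside genes to 11.7% at 1 Mb or more, while parental-only regions fall from 4.74% to 0.978%.

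Presence and absence of whole regions showed the same contrast. Both DKO embryoid body lists and no parental list recorded 2296 of 29529 far regions, or 7.78%, against 4.69% of all regions. Both parental lists and no DKO list recorded 908, or 3.07%, against 4.27% of all regions. Far regions made up 32.7% of all DKO-only regions and 14.2% of all parental-only regions. No test goes with these counts. Leaving out 1 list drops a condition that a region must meet, so it can hardly lower a count, and rises of more than 1.5 times were seen. The DKO-only count was 9786 without DKO replicate 1, 5607 without DKO replicate 2 and 3724 without parental replicate 1, and the parental-only count reached 4167 without parental replicate 2.

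In bands beyond 100 kb the DKO-only regions numbered 660, 858, 491 and 286, and the parental-only regions 442, 359, 82 and 24. At 1 Mb or more the 286 were 11.7% and the 24 were 0.978% of 2453 regions. DKO-only far regions lay at a median of 326 kb from a gene and 777 of them (33.8%) at 500 kb or more. Parental-only far regions lay at a median of 204 kb and 106 (11.7%) at 500 kb or more. The far regions of all 4 lists were between these, at 252 kb and 21.6%. By the rank of fold enrichment within each list, the median percentile was 49.5 for DKO-only, 42.7 for parental-only and 75 for shared far regions, and the median widths were 286, 301 and 420 bp.

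Far regions found only in DKO embryoid bodies had a peak in ESCs at a share between those of parental-only and of shared regions. ESC peaks played no part in their choice, and no test goes with these shares. A peak in any of the 12 ESC lists overlapped 789 of the 2296 (34.4%), against 62 of the 908 parental-only regions (6.83%) and 2547 of the 4951 regions in all 4 embryoid body lists (51.4%). The share was 21.4% over all 29529 far regions of the embryoid body lists. Over all regions of the series it was 28.7% for DKO-only, 7.37% for parental-only and 60.5% for shared regions, in the same order. By ESC list the DKO-only share was 19.2% and 27.2% with C9, 18.6% and 19.4% with H9, and 18.2% and 18.2% with WDR5WT. For the parental-only regions the same shares were 1.76% and 3.41%, 3.08% and 2.97%, and 3.30% and 2.64%. With parental ESCs the DKO-only shares were 7.32% and 0.697% and the parental-only shares 1.76% and 0.220%. The DKO-only share was the higher in all 12 ESC lists, the parental ones included. With backbone ESCs, whose lists are the shortest, it was 0.131% and 0.218% (3 and 5 regions), against 0 of 908 parental-only regions, too few to compare. The shares over any ESC list were 36.0% and 7.79% at equal embryoid body list length and 33.0% and 6.90% without chromosome 8. The day of the DKO embryoid bodies is not in the labels, so genotype and day of culture cannot be told apart in this contrast.

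**Figure D3:**
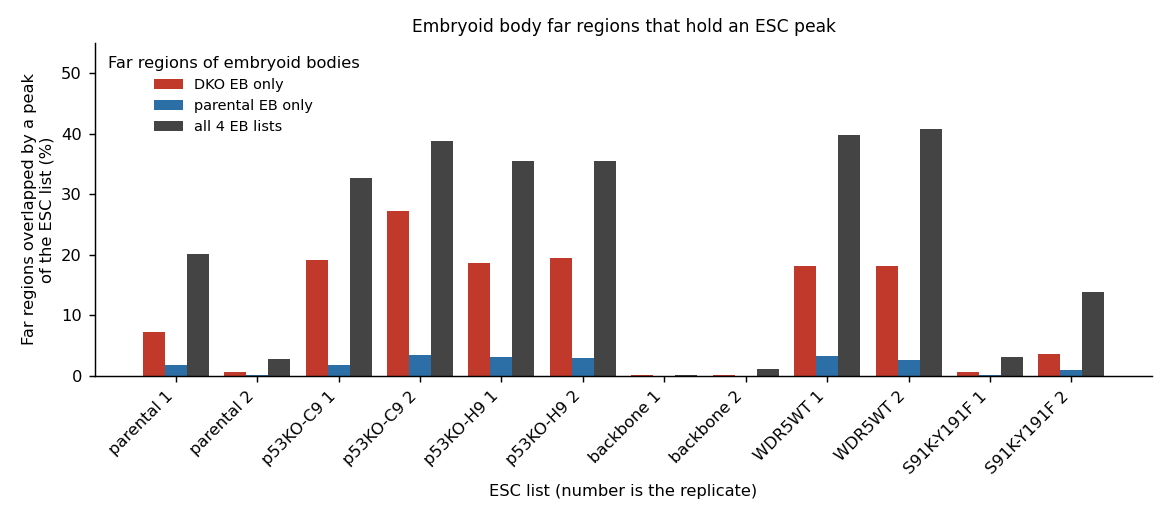
Share of embryoid body far regions (y axis, %) that a peak of each ESC list (x axis) overlaps, for regions found in both DKO and no parental list, in both parental and no DKO list, and in all 4 embryoid body lists. In every ESC list the DKO-only share is above the parental-only share, from 27.2% against 3.41% in C9 replicate 2 to 0.131% (3 regions) against 0 in backbone replicate 1.

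The strongest DKO-only far region, by the mean rank of its fold enrichment, was chr2:98507268-98507649 between Lrrc4c, which encodes a netrin-G ligand of synapses, and Iftap. Its fold enrichment was 6.41 and 7.72 in the DKO lists, and it lay 876 kb from Lrrc4c. Next were regions between Plod2 and Dipk2a (6.36 and 7.34), Agtr1b and Tbl1xr1 (5.83 and 8.42), D3Ertd751e and the protocadherin gene Pcdh10 (6.0 and 7.17), and the adhesion gene Nectin3 and Gm52257 (6.59 and 6.46). The strongest parental-only region was chr4:69818820-69819327 between Brinp1 and Cdk5rap2, with 6.68 and 6.80, followed by Tmpo-Nedd1 (6.37 and 5.95) and by Ncam2-Mrpl39 (6.36 and 5.89) beside the neural adhesion gene Ncam2. Of the 10 strongest, 2 DKO-only regions (Plod2-Dipk2a and Nectin3-Gm52257) had a peak in ESCs, in 4 lists each, and 0 of the 5 parental-only regions did.

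Far regions were then placed in gaps, the spaces between neighbouring protein-coding genes. Sequence 100 kb or more from a gene amounted to 785 Mb, 29.2% of the 2691 Mb between the outermost genes, and fell in 1689 gaps of 200 kb or more. Of these, 1396 held a far region, 1042 held one found in all 4 embryoid body lists and 711 held one found in all 6 C9, H9 and WDR5WT lists. Among 227 gaps with at least 1 Mb of far sequence, 24 had no region in all 4 embryoid body lists and 28 had none in all 6 ESC lists. The density was 42.8 far regions per Mb of far sequence, against 60.6 regions per Mb over all sequence between the outermost genes.

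By count, the fullest gap in embryoid bodies was the 2.68 Mb between Nr2f1, a nuclear receptor that patterns the forebrain and eye, and Arrdc3 on chromosome 13. Of its 185 far regions 31 were in all 4 embryoid body lists and 19 in all 6 C9, H9 and WDR5WT lists. The parental embryoid body lists held 64 and 56 far peaks there and the DKO lists 78 and 123. Others among the 10 fullest gaps were Adgrl2-Adgrl4 (29 regions in all 4 lists), between genes of adhesion receptors, Dsel-Cntnap5a (28), Got2-Cdh8, Cntnap5b-Cdh20 and Bcl11a-Fancl (27 each), Zeb2-Acvr2a (26), Olfm4-Pcdh17 and Slc10a2-Efnb2 (24 each). Cadherin, protocadherin or contactin-associated genes flank 4 of these 10, and the transcription factor genes Nr2f1, Bcl11a and Zeb2 flank 3.

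In the 6 ESC lists the fullest gap by count was Adam6a-Zfp386 on chromosome 12, which is the immunoglobulin heavy chain locus, with 42 regions in all 6 lists. Its far peaks numbered 91 and 30 in parental ESCs, 72 and 99 in C9, 68 and 77 in H9, 65 and 64 with WDR5WT, 28 and 78 with S91K-Y191F, and 22 and 25 with backbone. Even the shortest ESC lists held 22 and 25 peaks in this locus, whereas in the Nr2f1-Arrdc3 gap the backbone lists held 0 and 0. Others among the 10 fullest were Got2-Cdh8 (31), Olfm4-Pcdh17 (27), Pcdh20-Pcdh9 (26), Cdh8-Cdh11 (25), Tenm3-Aga (24), Dsel-Cntnap5a (23), Cntnap5b-Cdh20 (22) and Cobl-Pom121l12 (20). Got2-Cdh8, Olfm4-Pcdh17, Dsel-Cntnap5a and Cntnap5b-Cdh20 are also among the 10 fullest in embryoid bodies.

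**Figure D4:**
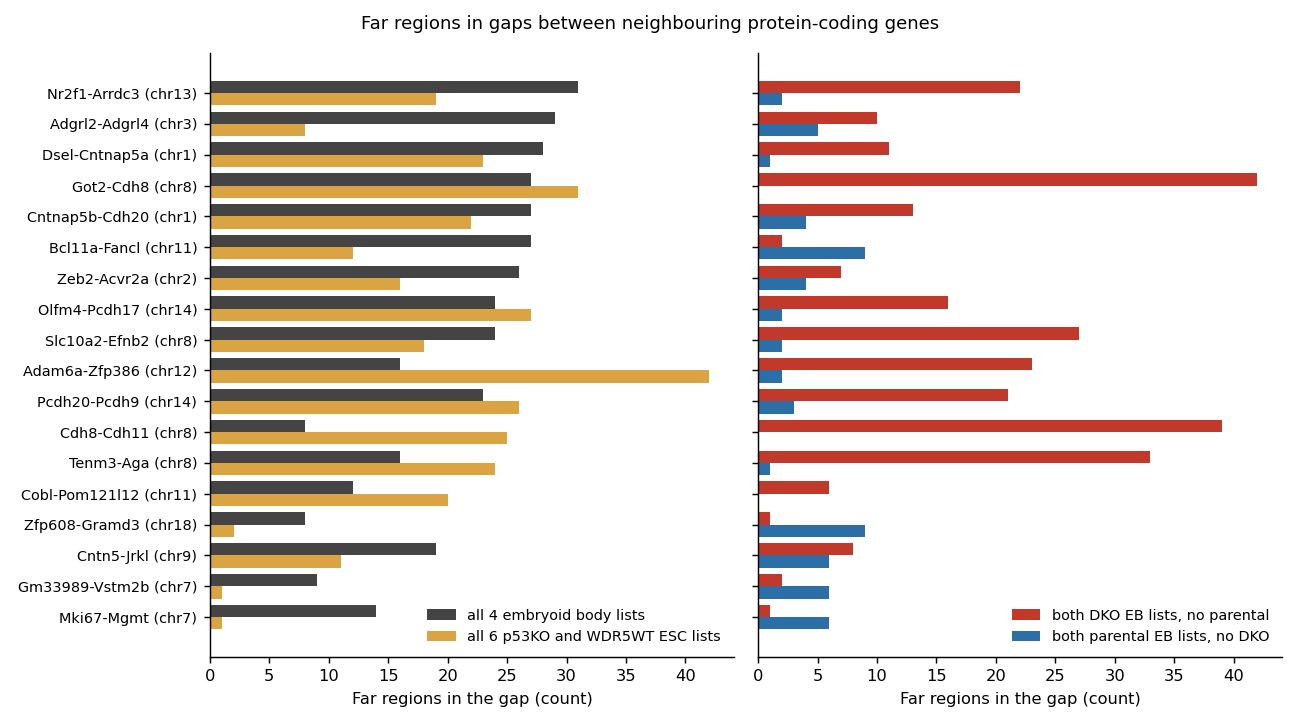
Far regions per gap between neighbouring protein-coding genes. Left, regions in all 4 embryoid body lists and in all 6 C9, H9 and WDR5WT ESC lists; right, regions found in both DKO and no parental embryoid body list and the reverse. Adam6a-Zfp386 has the most in ESCs (42), Nr2f1-Arrdc3 the most in embryoid bodies (31), and Got2-Cdh8 has 42 DKO-only and 0 parental-only regions.

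Between DKO and parental embryoid bodies, 538 gaps had more DKO-only than parental-only far regions, 251 had fewer and 99 had equal numbers above 0. The largest DKO-only counts were in Got2-Cdh8 (42 against 0 parental-only), Cdh8-Cdh11 (39 against 0), Tenm3-Aga (33 against 1) and Slc10a2-Efnb2 (27 against 2), all on chromosome 8, and in Adam6a-Zfp386 (23 against 2). In Cdh8-Cdh11, between a pair of cadherin genes, the far peaks numbered 18 and 13 in parental and 91 and 170 in DKO embryoid bodies. The ESC lists held 12 and 6 there in the parental line, 53 and 93 in C9, 41 and 49 in H9 and 37 and 42 with WDR5WT. With backbone they held 0 and 3, and with S91K-Y191F 4 and 12. The DKO embryoid body, C9, H9 and WDR5WT lists were thus above both parental lists of their stage. The shorter backbone and S91K-Y191F lists, which also lack p53, were not. This gap was chosen by its DKO-only embryoid body regions. The lists held 42 and 35 (parental) against 126 and 180 (DKO) in Tenm3-Aga, beside a teneurin gene.

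Among the 251 gaps that went the other way, Bcl11a-Fancl, beside a zinc finger gene of neural and blood development, had 9 parental-only and 2 DKO-only far regions, with 68 and 47 peaks in the parental and 46 and 60 in the DKO lists. Zfp608-Gramd3 had 9 and 1, with 36 and 28 against 24 and 28 peaks. Mki67-Mgmt and Gm33989-Vstm2b had 6 parental-only regions each against 1 and 2. Cntn5-Jrkl also had 6 parental-only regions, but 8 DKO-only ones. In Mki67-Mgmt the parental lists held 43 and 31 far peaks and the DKO lists 28 and 25, whereas in Bcl11a-Fancl the lists overlapped. These gaps were chosen by their parental-only regions, so the peak counts of the same lists are no separate evidence.

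Some gaps were open in embryoid bodies and nearly closed to ESC peaks. Between Rragc and Pou3f1, which encodes a POU factor of neural commitment, 12 of 50 far regions were in all 4 embryoid body lists and in none of the 6 C9, H9 and WDR5WT lists. Embryoid bodies had 31, 26, 21 and 27 far peaks in this gap, those 6 ESC lists had 0, parental ESCs 3 and 0, S91K-Y191F 0 and 2, and backbone 0 and 0. Over all far regions 2415 of 32275 (7.48%, against 10.8% of all regions) were in all 4 embryoid body lists and none of the 6 ESC lists, and 452 (1.40%, against 0.987%) were the reverse. Among parental lists alone, 5952 of 19143 far regions (31.1%, against 36.5%) were in both embryoid body and no ESC list, and 436 (2.28%, against 1.42%) were the reverse. Since stage and peak calling cannot be told apart, these counts describe the lists.

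Sox2, a factor of pluripotency and of neural progenitors, is known to have a distal control region more than 100 kb downstream in ESCs. In the gap from Sox2 to Atp11b 44 far regions were found, 6 of them in all 4 embryoid body lists and 1 in all 6 ESC lists. That 1 was chr3:34760983-34761665, 109 kb from Sox2, found in 12 of 16 lists (4 embryoid body and 8 ESC lists). Its fold enrichment was 3.92 and 3.24 in parental and 3.06 and 3.73 in DKO embryoid bodies, and in the 6 ESC lists it ranked between the percentiles 24.9 and 60.3 of signal. The strongest far region of the gap in embryoid bodies, chr3:35332588-35333447, 421 kb from Atp11b, had 7.12, 5.88, 4.27 and 5.25 and was in 0 ESC lists.

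By nearest gene, 68 of 80 neuronal adhesion and guidance genes had a far region, with a median of 47 regions each. They took 3991 far regions at a median of 599 kb, against 8 regions per gene and 276 kb over all 2245 nearest genes. Gap size was not taken into account in these values. Of the 3991 regions, 10.7% were in all 4 embryoid body lists, against 14.7% over all far regions. In all 6 C9, H9 and WDR5WT lists the shares were 8.79% and 7.64%. In the embryoid bodies 370 of 3468 (10.7%) were DKO-only and 57 (1.64%) parental-only, against 7.78% and 3.07% over all far regions. Leaving out chromosome 8 gave 263 and 49 (9.70% and 1.81%, against 7.33% and 3.30%), and under 500 kb the shares were 10.6% and 2.41% against 6.92% and 3.65%. Cdh8 led with 43 DKO-only and 0 parental-only regions, before Cdh11 (25 and 2), Tenm3 and Pcdh20 (17 each, with 1 and 3), and Cdh9 (16 and 0). The axon guidance genes Robo1 (5 and 6) and Epha4 (1 and 4) had more parental-only regions. In all 4 embryoid body lists Adgrl2 (25 regions) and Cdh9 (19) led, and in all 6 ESC lists Cdh8 (30) and Pcdh9 (23).

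Of 86 neural and eye field regulators 55 had a far region, and 68 of 1052 (6.46%) were DKO-only and 42 (3.99%) parental-only. Under 500 kb and without chromosome 8 the shares of this list were equal, at 4.72% each, against 6.60% and 3.87% over all genes. Nr2f1 led with 15 regions in all 4 embryoid body lists, before Bcl11a and the Iroquois gene Irx1 (11 each). Nr2f1 had 8 DKO-only against 1 parental-only region, whereas Bcl11a had 1 against 6 and the SoxC gene Sox11 1 against 3. Within the list, single genes thus went in both directions.

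Pluripotency genes were the 1 list of 5 with fewer DKO-only (6 of 224, 2.68%) than parental-only (11, 4.91%) far regions. Its 10 genes with a far region included Nr5a2, a nuclear receptor of naive pluripotency, with 9 regions in all 4 embryoid body lists and 5 in all 6 ESC lists, Myc with 8 and 3, and Sox2 with 1 DKO-only and 3 parental-only regions. Mesoderm and endoderm regulators had 19 and 13 of 215 (8.84% and 6.05%), with Foxa2, an endoderm factor, at 1 against 3. Signalling ligands and feedback regulators had 21 and 9 of 242 (8.68% and 3.72%), with the morphogen Bmp2 at 4 against 1 and Gas1, a hedgehog co-receptor, at 0 against 3. These lists are described by their counts only.

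Of the 5 strongest far regions in embryoid bodies 3 were in no ESC list. Of all 4951 far regions in the 4 embryoid body lists 2404 (48.6%) were in none, against 39.5% of all regions shared by these lists. A region between Zeb2 and Acvr2a, chr2:46506916-46507548, 1390 kb from Zeb2, a transcriptional repressor of neural crest and brain development, had fold enrichments of 11.0, 9.69, 9.26 and 10.4 and was in 0 ESC lists. Regions in Gucy1a2-Aasdhppt (11.6, 9.02, 9.21 and 9.54) and Ptbp2-Rwdd3 (9.78, 9.78, 8.39 and 9.91) were in 0 ESC lists as well. In Adamts5-N6amt1 (10.7, 9.61, 8.75 and 9.94) 3 ESC lists had a peak, and in Ccer1-Atp2b1 (10.4, 10.2, 8.45 and 10) 10 did. The farthest regions in all 4 lists lay 2188 kb from a gene in Celf4-Pik3c3, 2153 kb in Olfm4-Pcdh17 and 2107 kb in Pcdh20-Pcdh9. The Olfm4-Pcdh17 region, chr14:82290065-82291473, was in 12 lists with fold enrichments of 6.0, 4.66, 6.46 and 7.12.

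Of the 5 far regions with the highest ranks in the 6 longer ESC lists, 4 were in no embryoid body list. In Esp15-Esp38 the region chr17:39842940-39848888 overlaps the annotated genes AY036118 and Rn18s-rs5, the latter named for its likeness to ribosomal RNA, and its signal ranked from the percentile 99.9 upward in all 12 lists. In Lrrc4c-Iftap chr2:98662181-98663042 and chr2:98666177-98667388 were in all 12 lists as well, the latter from the percentile 99.6 upward, and so was chr6:3182000-3184295 in LOC108168698-Samd9l. The exception was chr8:50915008-50917405 in Tenm3-Aga, 1393 kb from Tenm3, which was in 11 ESC and all 4 embryoid body lists. Of 38 far regions in all 12 ESC lists, 21 (55.3%) were in no embryoid body list, against 110 of 321 (34.3%) over all regions. The 4 embryoid body lists passed a blacklist filter that is not stated for the ESC lists, and its part in these regions was not tested.

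Only 8 far regions were in all 16 lists. They lay in Dsel-Cntnap5a, Adam6a-Zfp386, Slc5a7-St6gal2, Fam98a-Crim1, Ptprd-Tyrp1, Slc24a2-Mllt3, Sema3d-Sema3a and Anxa10-Spock3. The Dsel-Cntnap5a region, chr1:114848990-114850444, 835 kb from Cntnap5a, had fold enrichments of 7.69, 8.29, 6.83 and 7.49. The Sema3d-Sema3a region, chr5:12872527-12873922, lies 252 kb from Sema3a, a secreted axon guidance cue, and had 5.17, 4.32, 5.67 and 6.27. Among the 6 longer ESC lists the first ranked between the percentiles 97.1 and 99.4 and the other between 96.3 and 98.1.

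Among ESCs the knockout of p53 went with 1448 of 9584 far regions found in all 4 p53 knockout and no parental list (15.1%, against 11.9% of all regions), and with 286 found in both parental and no knockout list (2.98%, against 2.44%). Backbone against parental ESCs gave 13 of 3905 (0.333%, against 0.430%) and, in reverse, 388 (9.94%, against 11.6%). WDR5WT against backbone ESCs gave 3803 of 6052 (62.8%, against 64.8%) and 130 (2.15%, against 2.19%), and S91K-Y191F against backbone 257 of 2245 (11.4%, against 15.6%) and 7 (0.312%, against 0.408%). In these 4 comparisons list length differed many-fold between groups or within the parental pair, and its part in the counts was not tested. As ratios, the shares of far regions were nearest to those of all regions in WDR5WT against backbone ESCs.

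WDR5WT and p53 knockout ESCs have lists of like length. Both WDR5WT and no p53 knockout list held 316 of 9006 far regions (3.51%, against 3.25% of all regions), and all 4 p53 knockout and no WDR5WT list held 230 (2.55%, against 1.85%). All 6 lists shared 2579 (28.6%, against 37.2%). The remaining far regions were in other combinations of the lists, so the small counts do not show that the groups are alike. Among the gaps with the most were Auts2-Castor2 and Gm4868-Tmem132c (5 WDR5WT-only regions each), and Kcna4-Mettl15, Tenm3-Aga and Tmem167-Atp6ap1l (4 p53-knockout-only regions each). In Auts2-Castor2 the far peaks numbered 15 and 13 with WDR5WT, 6 and 9 in C9, and 5 and 11 in H9. The gap was chosen by these same lists, so the counts are no separate evidence of a difference.

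The 2 p53 knockout clones differed from each other in the same measure. C9 alone held 330 of 8081 far regions (4.08%, against 2.26% of all regions) and H9 alone 235 (2.91%, against 4.63%), so that far regions were 35.1% of all C9-only and 12.2% of all H9-only regions. C9-only far regions lay at a median of 364 kb and 35.8% of them at 500 kb or more, and H9-only regions at 230 kb and 13.6%. At 1 Mb or more the counts were 39 (C9-only) and 7 (H9-only), and inside genes 292 and 1053. The gaps with the most C9-only regions were Pcdh20-Pcdh9 (11, against 0 H9-only) and Tenm3-Aga (9 against 0). Of the 330 C9-only far regions 42 (12.7%, or 1.83% of the 2296) overlapped a DKO-only embryoid body region and 1 (0.303%, or 0.110% of the 908) a parental-only one. For the 235 H9-only far regions these were 8 (3.40%, or 0.348%) and 3 (1.28%, or 0.330%). A contrast of 2 clones of 1 genotype thus had a lean with distance of the same kind as the embryoid body contrast, with a C9-to-H9 ratio of far peak shares of 1.37 at 1 Mb or more (2.03% and 2.54% against 1.65% and 1.69%, exact permutation p = 0.333, the smallest possible). Between p53 knockout and parental ESCs the ratio of mean shares was 1.08, 1.23, 1.41 and 1.62 in the 4 bands beyond 100 kb. The parental lists were shorter, and at 1 Mb or more they held 1.45% (replicate 1) and 0.994% (replicate 2, the shortest of these lists). At equal list length the far share of p53 knockout minus parental ESCs was -3.04 points. The part of list length in the ratios by band was not tested. Over the 3142 far regions in all 4 p53 knockout lists the shares were 9.01% (DKO-only) and 0.350% (parental-only), near those of the C9-only regions. Both counts rose when 1 list was left out, which drops a condition and can hardly lower them. The C9-only count was 1715 and 598 without C9 replicates 1 and 2, and 623 and 615 without H9 replicates 1 and 2. The H9-only count was 694 and 609 without H9 replicates 1 and 2, and 705 without C9 replicate 2. At equal list length there were 429 C9-only and 148 H9-only regions, and in the upper 50% of each list 207 and 81.

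By chromosome the density of far regions ran from 0.825 per Mb of far sequence on Y and 12.8 on X to 79.8 on chromosome 8, which held 3045. The other autosomes held 39.6 to 58.6. In embryoid bodies chromosome 8 took 10.3% and 9.72% of far peaks in the DKO and 5.83% and 5.97% in the parental lists, a ratio of 1.7. Of the peaks that were not far it took 6.97% (DKO) and 5.23% (parental) on average, a ratio of 1.33. In the 10 ESC lists without p53 its share was 9.47% to 26.0%, against 5.58% and 11.4% in parental ESCs, and the groups overlapped. Without windows crowded with peaks the range was 2.41% to 11.3%, against 4.0% and 4.57%. Over 21 chromosomes 0 passed an exact permutation test of far peak shares between ESCs without p53 and parental ESCs after adjustment, and 2 (chromosomes 4 and X) had an unadjusted p under 0.05. Without the crowded windows this was so for X alone, and chromosome 4 had an exact permutation p of 0.106. Among DKO-only far regions 333 (14.5%) were on chromosome 8, and among parental-only 24 (2.64%). Group-only regions inside genes leaned to this chromosome as well. Leaving it out took them from 2385 to 2047 (DKO-only) and from 3325 to 3215 (parental-only). The lean was thus not particular to far regions.

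**Figure D5:**
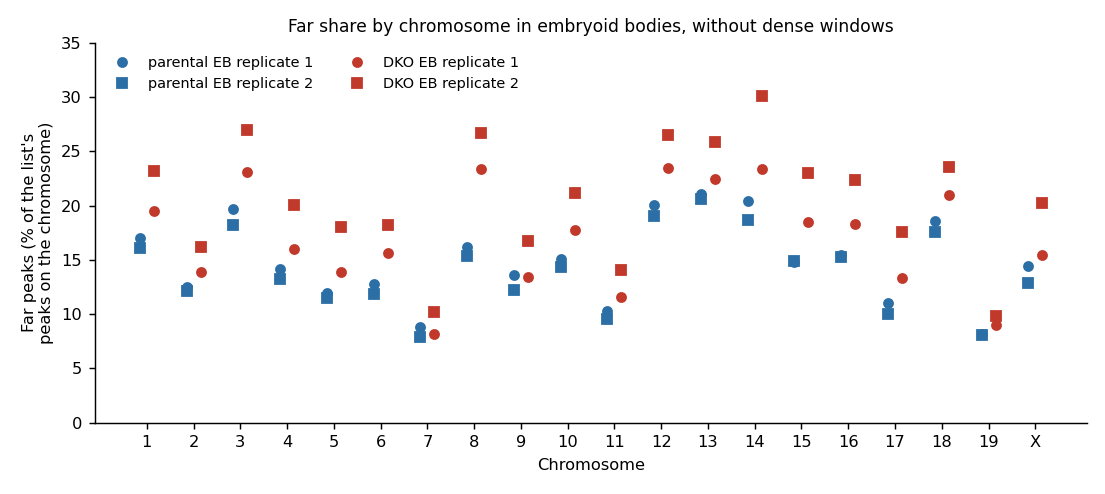
Share of each embryoid body list's peaks on a chromosome (x axis) that are far from genes (y axis, %), without windows crowded with peaks and without chromosome Y. Both DKO lists lie above both parental lists on 18 of 20 chromosomes, and not on chromosomes 7 and 9.

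The rise of the far share in DKO embryoid bodies was not limited to chromosome 8. Both DKO far shares exceeded both parental ones on 18 of 20 chromosomes (all but 7 and 9; Y was left out), and DKO-only outnumbered parental-only far regions on 21 of 21, from 71 against 70 on chromosome 9 and 1 against 0 on Y to 333 against 24 on chromosome 8. Without chromosome 8 there were 1963 DKO-only and 884 parental-only far regions. The far shares without chromosome 8 were 16.6% and 20.1% in DKO and 14.6% and 13.7% in parental embryoid bodies, so the groups did not overlap there.

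Far peaks were narrower than other peaks in 8 of 8 groups (a mean difference in median width of -62.2 ± 38.7 bp, SD, n = 8 groups; two-sided exact sign-flip permutation test p = 0.00781, the smallest possible, adjusted p = 0.0234). The call was lost at a distance limit of 50 kb (-57.5 bp, exact sign-flip permutation test, adjusted p = 0.0703). Against other peaks more than 1 kb from every gene end the difference was -26.4 bp (adjusted p = 0.0234 by the same exact test). Median widths were 560 bp (far) and 689.5 bp (other) with WDR5WT, 313 and 376 bp in parental embryoid bodies, 309 and 364.5 bp in DKO embryoid bodies, and 585.5 and 592.5 bp in parental ESCs. The median rank of far peaks by signal or fold enrichment differed by -3.13 ± 7.46 percentiles, lower in 7 of 8 groups and 10.9 higher in backbone ESCs (exact sign-flip permutation p = 0.195). Replicate agreement of far peaks went both ways among the ESC groups and was lower in both embryoid body groups. Of the far peaks of the shorter list 67.3% had a match in the other parental embryoid body replicate, against 77.6% of other peaks, and the values were 69.5% and 76.3% in DKO embryoid bodies. Over the 8 groups the difference was -2.65 ± 5.30 points, lower in 4 and higher in 4 (exact sign-flip permutation p = 0.195).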

How the data were processed

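The submitters' processing notes name build mm10, the aligner Bowtie2 2.3.5, the peak callers MACS2 2.1.2 and Genrich 0.6, and DESeq2 and SAMtools, and do not say which list each tool made. The deposited ESC lists give for each peak a score, a signal that is never under 200 and a −log10 p, and their caller is not given in the sources used here. The deposited embryoid body lists give a score, a ratio (fold enrichment over local background) and −log10 p and q values, have peak names in the form MACS2 writes, and had blacklisted regions removed by the authors, per the file names. Signal was used as percentile ranks within a list, and fold to rank or describe peaks within a list, not to compare lists.

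From these, far peaks, merged regions (1 bp overlap), gaps and nearest genes were computed with Python 3.11.15, numpy 2.4.6, pandas 2.3.3, scipy 1.17.1 and matplotlib 3.10.9, against protein-coding genes of RefSeq GRCm38.p6. A region counted for a group when every list of it and no list of the other had a peak. Such counts have no test. For shares per list the test was a two-sided exact permutation test over lists, and for group medians an exact sign-flip permutation test, with Benjamini-Hochberg adjustment. Dense windows, left out where named, are 30 windows of 100 kb that held at least 10 peaks in the list of backbone ESC replicate 1. The scripts were tested on simulated data.

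Named gaps, regions and genes follow a rule, and some that it names are not reported here. It takes the 10 gaps per stage with the most regions in every list of the better covered groups and the 5 gaps per comparison and direction with the most group-only regions. It also takes up to 5 leading genes per gene list, the 5 strongest and 5 farthest regions per stage, and Sox2. Other genes with opposite counts, group-only regions by strength and the lncRNAs were chosen after their values were seen. The members and lists were chosen with earlier results of these data known. Alternatives were other distances (50 and 200 kb), all annotated genes, equal list length, the 50% of peaks with the best deposited p, other overlaps, single chromosomes or dense windows left out, and each list left out.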

Additional observations from a re-analysis of the deposited data

How the results depend on the processing

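The far shares rest on 2 lists a group, and 7 of 8 comparisons could not reach 0.05. Over settings other than leaving out a list, 113 values of the main comparisons stayed the same, 11 reversed, 6 moved, 2 were weaker and 1 was stronger. For tested differences, the same means an unchanged direction and side of the threshold. For counts of regions it means within 1.5 times. The 113 are no measure of robustness. In 7 of 8 share comparisons the side was fixed in advance, and with replicate as a block the direction was too. Of the values outside the main comparisons 14 kept within their limits and 7 moved, among them adhesion gene regions (189 DKO-only and 22 parental-only in the upper 50%). Reversed differences in far share were backbone against parental ESCs at 50 kb (1.17), in the upper 50% of each list (2.25) and without dense windows (0.722); S91K-Y191F against backbone at 200 kb (1.19) and with all annotated genes (1.22); embryoid bodies against ESCs in the upper 50% (-1.53); WDR5WT against backbone in the upper 50% (-2.77) and at equal list length (-9.58); and p53 knockout against parental ESCs at equal length (-3.04). Against other peaks more than 1 kb from gene ends, the rank (1.29) and replicate agreement (2.54) of far peaks reversed. Embryoid bodies exceeded ESCs by 12.5 points at equal length (exact permutation test, adjusted p = 0.00879), a cut that ranked each stage by an unlike measure. The width difference lost its call at 50 kb (-57.5, adjusted p = 0.0703) by exact sign-flip permutation, and the cause was not tested. Over ESC groups only it was -63.2, and its exact adjusted p of 0.0938 is the smallest that 6 groups can give.

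Counts moved with the upper 50% of each list to 1248 DKO-only, 462 parental-only, 141 WDR5WT-only and 143 p53-knockout-only regions, and parental-only counts were 1369 at 50 kb and 464 at 200 kb. At equal list length the DKO-only and parental-only counts were 2125 and 924. Leaving out each list gave far-share differences of 0.0488 to 2.33 (embryoid bodies against ESCs), 2.86 to 6.40 (DKO against parental embryoid bodies), 1.91 to 5.01 (p53 knockout against parental ESCs), -2.71 to 0.391 (backbone, also 0.0142), 1.54 to 3.89 (WDR5WT against backbone), -2.39 to 0.514 (S91K-Y191F, also 0.239), -2.45 to -0.871 (WDR5WT against p53 knockout) and 0.974 to 4.45 (C9 against H9). It gave 2844 to 9786 DKO-only, 1129 to 4167 parental-only, 339 to 656 WDR5WT-only and 262 to 397 p53-knockout-only regions. These counts can hardly fall, since leaving out a list drops a condition. It also gave width differences of -64.8 to -59.6, rank differences of -4.15 to -2.10, and 0 chromosomes past the test. Replicate numbers do not pair lists: replicate 1 was higher in 4 of 8 groups, and with replicate as a block the DKO difference is 4.63 by construction (exact permutation p = 0.5, the smallest possible). For 1 Mb or more, adhesion genes, overlap with ESC peaks and the clones, the alternatives were chosen after seeing the data.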
